A study of Mus musculus with 6 samples.

Results

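The WNT ligand repertoire of cultured mouse mammary cells was examined for 10 genes, namely Wnt3a, Wnt6, Wnt7a, Wnt7b, Wnt10a and Wnt10b, whose products are usually assigned to canonical (β-catenin) signaling, and Wnt4, Wnt5a, Wnt5b and Wnt11, usually assigned to non-canonical signaling. Each gene was taken from the expression table by its symbol, and the 10 members were found among 37753 entries. RNA-seq libraries were made from primary mammary epithelial cells (3 preparations, MEC 1 to 3) of C57/Bl6J mice with the Cre transgene alone (WAPCre+) and from 3 tumor cell lines (MEKO, lines 199, 233 and 336) of genotype Mapk8KO Mapk9KO Cre+ on the same strain. Each MEC preparation pooled 3 to 5 virgin mice, 10 to 12 weeks old, and its cells were grown on collagen I in a medium with EGF and insulin. The lines were grown out of mammary tumors of parous Wap-Cre mice with floxed Mapk8 and Mapk9, with 2 passages on collagen I before ordinary culture dishes, and the age of the tumor mice is not given in the labels. Both groups carried Cre, driven by the promoter of whey acidic protein, a milk protein gene that is active in the luminal secretory epithelium of pregnancy and lactation. In the study, females were mated at 10 to 12 weeks and checked for tumors once their litters were weaned. The tumor mice were therefore older than the MEC donors. Genotype, tumor origin, parity, age of the mice, time in culture and growth medium differed together between the groups and cannot be told apart.

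WNT proteins are secreted, lipid-modified signals. In the canonical branch a ligand bridges a Frizzled (FZD) receptor and the co-receptor LRP5 or LRP6, β-catenin escapes degradation, and TCF/LEF factors switch on target genes. In the non-canonical branches, ligands such as WNT5A act through ROR, RYK and planar cell polarity proteins and can oppose the β-catenin branch. In the mammary gland, Wnt4 relays the progesterone signal that drives side branching, Wnt5a restrains ductal growth, Wnt10b marks the embryonic placode, and Wnt1, Wnt3 and Wnt10b are genes that mouse mammary tumor virus activates by insertion. Mapk8 and Mapk9 encode the c-Jun NH2-terminal kinases (JNK), which phosphorylate JUN, a subunit of the transcription factor AP1.

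Values are FPKM, fragments scaled to transcript length and to the mapped fragments of the library, so that levels of genes of different length can be set side by side. Differences are given on the log2(FPKM + 1) scale as MEKO minus MEC with the standard error (SE), which understates the change of low genes. A gene was called when its adjusted p in limma was under 0.05 and its log2 fold change was beyond 0.75 in either direction. Of the 12461 genes tested, 9.9% were called, 2.64% as higher and 7.26% as lower in MEKO, and 37.2% had groups that did not overlap. Of the 10 ligands, 7 passed the filter on low values, and Wnt3a, Wnt6 and Wnt10b did not. The filter takes the mean of all 6 libraries, so a gene can pass through 1 group alone. Wnt5b, with a MEKO mean of 0.468 FPKM, passed through MEC. Among those 7, Wnt10a was called higher and Wnt5a, Wnt5b and Wnt11 were called lower.

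The 5′ flanks of the 2 genes with the deepest loss, Wnt5b and Wnt11, are shown because both were lower in every line. AP1 and TCF motifs were searched in the promoter windows of all members that had one. Each run is the 250 bases that precede the first RefSeq transcription start in the mouse build GRCm38.p6, read 5′ to 3′ on the gene's own strand, with motif matches in capitals.
Wnt5b, minus strand, chr6:119544348-119544597: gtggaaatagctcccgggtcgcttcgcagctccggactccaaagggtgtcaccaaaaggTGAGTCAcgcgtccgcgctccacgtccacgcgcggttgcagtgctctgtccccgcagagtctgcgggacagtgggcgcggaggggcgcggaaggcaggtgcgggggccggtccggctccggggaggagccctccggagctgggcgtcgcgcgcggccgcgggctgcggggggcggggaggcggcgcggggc
Wnt11, plus strand, chr7:98834862-98835111: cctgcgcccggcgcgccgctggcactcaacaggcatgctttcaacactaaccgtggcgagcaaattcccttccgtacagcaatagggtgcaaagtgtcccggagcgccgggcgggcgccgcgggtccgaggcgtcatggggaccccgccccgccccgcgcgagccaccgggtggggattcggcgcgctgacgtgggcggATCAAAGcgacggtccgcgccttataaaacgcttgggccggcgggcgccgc
The capitals in the Wnt5b run mark TGAGTCA, a match to the AP1 motif TGANTCA that begins 191 bases before the start and reads the same way on both strands apart from its middle base. The capitals in the Wnt11 run mark ATCAAAG, the reverse complement of the TCF motif CTTTGAT, which begins 51 bases before the start. RefSeq promoter windows of 300 bases (250 before and 50 after a start) were given for 7 of the 10 members, with 10 windows in all, and Wnt5a, Wnt7b and Wnt10a were not among them. A further match was CTTTGAT at 71 bases before an internal Wnt5b start, in the stretch agtaagtctctCTTTGATctgctccctgt. The windows of Wnt3a, Wnt4, Wnt6, Wnt7a and Wnt10b held neither motif. Neither did another Wnt5b window (chr6:119467162-119467461) or another Wnt11 window (chr7:98838595-98838894). Of all 32851 mouse promoter windows of this length, 7.81% held TGANTCA and 8.65% held CTTTGAT or CTTTGAA on either strand, and no member window held both. These shares are per window, and a gene with several windows, such as Wnt5b or Wnt11, has more openings for a match. A match is a description of the letters and was not tested for binding.

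Mapk8 and Mapk9, the genes deleted in the tumor mice, gave a check of the labels. Mapk8 was at 23.1, 25.1 and 19.2 FPKM in MEC and at 5.93, 3.12 and 1.37 in lines 199, 233 and 336. Mapk9 was at 24.4, 21.5 and 22.1 FPKM in MEC and at 7.62, 3.15 and 3.07 in the lines. Both were lower in every line (log2 fold change -2.52 and -2.17, adjusted p in limma of 0.0146 and 0.0122), with residual FPKM in all 3.

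The cell type markers set the lines apart from each other as well as from MEC. Of 5 luminal markers, 4 were called lower in MEKO, and their summed level was 5310 to 8870 FPKM in MEC and 789 to 1960 in the lines, with none at 0. The 5 basal (myoepithelial) markers summed to 1250 to 2210 FPKM in MEC, to 1870 in line 199 and to 10.1 and 45 in lines 233 and 336, with 1 of 5 called lower. The 7 fibroblast markers summed to 98.8 to 190 FPKM in MEC, to 1100 in line 199 and to 2.4 and 4.22 in the other lines, with Dcn called lower of 5 tested, Lum listed at 0 in lines 233 and 336, and Dcn listed at 0 in line 233. Line 199 held the basal markers Krt5, Krt14 and Trp63 above any MEC preparation. It also held the fibroblast markers Col1a1, Col1a2, Col3a1, Pdgfra and Pdgfrb above any MEC preparation. The other lines held all of these markers below any MEC preparation. Other markers of these lists went the other way in line 199, where Acta2 (719 FPKM against 736 to 1450 in MEC), Mylk (0.714 against 7.96 to 12), Dcn (0.311 against 3.29 to 6.62) and Lum (0.0264 against 0.507 to 1.28) lay below every MEC preparation. Leukocyte markers summed to 21.7 to 41.8 FPKM in MEC and 0.946 to 24.9 in the lines. Lyz2 was called lower of 3 tested, and Cd3e was listed at 0 in every line. Cd68 was not called (log2 fold change -0.04). Its values were 3.46 to 6.59 FPKM in MEC and 0.771, 2.73 and 23.5 in lines 199, 233 and 336. Endothelial markers summed to 1.67 to 13.9 FPKM in MEC and 0.164 to 0.43 in the lines, and adipocyte markers never summed above 0.226. In bulk RNA, fewer cells of a type and less RNA per cell cannot be told apart.

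**Figure D1:**
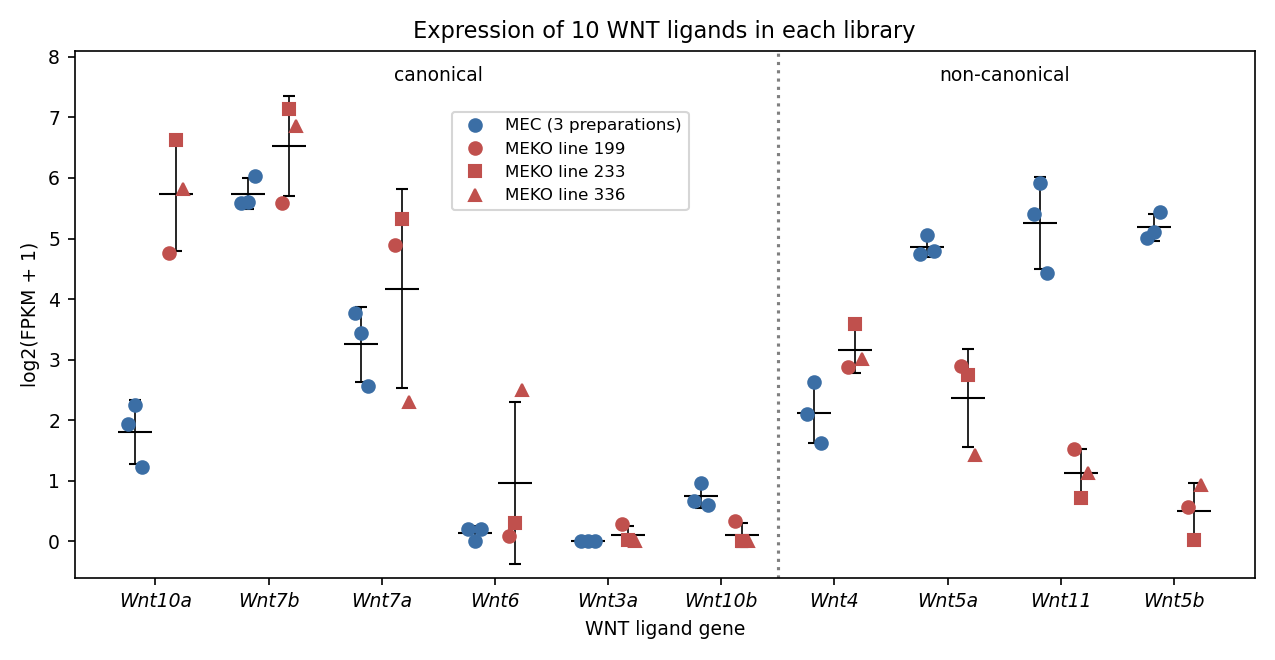
Level of each of the 10 WNT ligands as log2(FPKM + 1) in 3 MEC preparations (blue circles) and 3 MEKO tumor cell lines (red circles, squares and triangles), with the black bar and whiskers giving the mean ± SD of the log2 values of each group (n = 3). Wnt10a lies higher in all lines and Wnt5a, Wnt5b and Wnt11 lie lower in all lines than in any MEC preparation, while Wnt7a spreads over both sides.

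Among the canonical ligands, Wnt10a rose and was the only member called higher. Wnt10a (chr1:74791516-74804179, plus strand), a ligand known for its part in tooth and hair follicle formation, was at 2.85, 3.77 and 1.34 FPKM in MEC 1, 2 and 3 and at 26.1, 98.2 and 55.1 in lines 199, 233 and 336. The lowest line lay above the highest MEC preparation, and the lines stood at 9.84, 37 and 20.7 times the MEC mean. The group means were 2.65 ± 1.23 and 59.8 ± 36.3 FPKM (SD, n = 3 each), a log2 fold change of 3.93 ± 0.51 (SE; limma, adjusted p = 0.00833). The call was made under all 14 alternative settings, with limma adjusted p from 0.00125 to 0.0473. Among these settings, summing the entries of a symbol repeats the main fit for every member, since each member had 1 entry. The lines themselves differed by a factor of 3.76 between the lowest and the highest.

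Wnt7b (chr15:85535437-85582473, minus strand), a ligand expressed in epithelia such as lung and mammary ducts, was the most abundant member in 5 of the 6 libraries. Its values were 47.1, 47.4 and 64.4 FPKM in MEC and 47.1, 140 and 115 in lines 199, 233 and 336. Line 199 was level with the lowest MEC preparation, whereas the other lines lay above all of them. The log2 fold change of 0.79 ± 0.41 was not called (limma, adjusted p = 0.261). It was called with limma array weights (1.17, adjusted p = 0.026) and when line 199 was left out (1.26, limma adjusted p = 0.0152).

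Wnt7a (chr6:91363981-91411363, minus strand), best known for patterning of the limb and the female reproductive tract, was at 12.6, 9.84 and 4.92 FPKM in MEC and at 28.8, 39 and 3.91 in lines 199, 233 and 336. Lines 199 and 233 lay above every MEC preparation and line 336 lay below them all. The log2 fold change was 0.92 ± 0.81 and was not called (limma, adjusted p = 0.493). The spread among the lines, a factor of 9.97, was the largest of any canonical member with a mean above 10 FPKM in MEKO.

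The remaining canonical ligands were low in nearly all libraries. Wnt6 (chr1:74771892-74785322, plus strand) was at 0.156, 0 and 0.16 FPKM in MEC and at 0.0612, 0.229 and 4.66 in the lines, so that line 336 alone reached 1 FPKM. Wnt3a (chr11:59248033-59290752, minus strand), the ligand most often used to activate β-catenin in culture, was listed at 0 in every MEC preparation and at 0.218, 0.0191 and 0 in the lines. Wnt10b (chr15:98770712-98778150, minus strand) was at 0.597, 0.952 and 0.51 FPKM in MEC and at 0.267, 0 and 0 in the lines. Wnt10b was the only canonical member with lower values in every line, without overlap of the groups. The exact two-sided permutation test gave p = 0.1 for Wnt10b, the smallest value that 3 against 3 libraries allow, and without the filter the log2 fold change of -0.63 was not called (limma, adjusted p = 0.0634).

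Wnt6 and Wnt10a are neighbours on chromosome 1, 6.2 kb apart with no protein-coding gene between them. Wnt10a was high in all 3 lines, whereas its neighbour Wnt6 passed 1 FPKM in line 336 only. Within 500 kb on either side of Wnt10a, 21 other protein-coding genes were tested, none was called, and their log2 fold changes ran from -1.01 to 0.9 with a median of 0.08. The next ligand pair, Wnt3a and Wnt9a on chromosome 11, lies 16.2 kb apart, and Wnt10b lies 11.7 kb from Wnt1 on chromosome 15.

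The non-canonical ligands separated into 3 that fell and 1 that did not. Wnt5b (chr6:119432531-119544347, minus strand), a close relative of Wnt5a, was at 31.2, 33.4 and 42.4 FPKM in MEC and at 0.479, 0.0117 and 0.912 in lines 199, 233 and 336. All lines were below 1 FPKM, and the MEC mean was 76.3 times that of the lines (35.7 ± 5.91 against 0.468 ± 0.45 FPKM, SD, n = 3 each). The log2 fold change was -4.68 ± 0.28 (limma, adjusted p = 0.000927) and Wnt5b was called under all 14 alternatives, from -6.46 with a pseudocount of 0.1 to -4.43. Fbxl14 lies on the opposite strand of the Wnt5b locus, shares no exon base with Wnt5b, and was at 7.43 to 11.4 FPKM in MEC and 9.24 to 16.8 in the lines. The groups overlapped for Fbxl14, and none of the 6 tested protein-coding genes within 500 kb of Wnt5b was called (log2 fold changes from -1.13 to 1.0).

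Wnt11 (chr7:98835112-98855195, plus strand), a ligand of convergent extension movements and of kidney branching, was at 41.5, 59.7 and 20.6 FPKM in MEC and at 1.87, 0.641 and 1.19 in the lines. Here too the highest line lay far below the lowest MEC preparation. The MEC mean was 32.9 times that of the lines (40.6 ± 19.6 against 1.23 ± 0.613 FPKM, SD, n = 3 each), with a log2 fold change of -4.13 ± 0.42 (limma, adjusted p = 0.00371). The call was made under all 14 alternatives, with log2 fold changes from -4.91 to -3.8. The 7 tested protein-coding neighbours within 500 kb had log2 fold changes from -1.32 to 2.6 with a median of 1.18, and none was called.

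Wnt5a (chr14:28504750-28527448, plus strand) was at 25.7, 32.2 and 26.6 FPKM in MEC and at 6.47, 5.75 and 1.7 in the lines. The groups did not overlap, but the lines retained more Wnt5a than Wnt5b or Wnt11, at 4.64 ± 2.57 against 28.2 ± 3.52 FPKM (SD, n = 3 each), or 6.08 times less than MEC. The log2 fold change was -2.50 ± 0.4 (limma, adjusted p = 0.016). The call was lost when MEC 1, MEC 2 or MEC 3 was left out (limma adjusted p = 0.0757, 0.0769 and 0.0659), with log2 fold changes of -2.56, -2.40 and -2.53, and Wnt5a was called under the other 11 alternatives.

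Wnt4 (chr4:137277489-137299726, plus strand) did not follow the other non-canonical ligands. It was at 3.3, 5.18 and 2.1 FPKM in MEC and at 6.33, 11.1 and 7.05 in lines 199, 233 and 336, with every line above every MEC preparation. The log2 fold change was 1.04 ± 0.32 and was not called (limma, adjusted p = 0.0981; exact two-sided permutation p = 0.1, the smallest possible), and Wnt4 was called under none of the 14 alternatives. Of 10 tested protein-coding genes within 500 kb of Wnt4, 5 were called lower, against 7.26% of all tested genes. The median log2 fold change was -0.94 over the 10. Those 5 were Alpl, Cdc42 and the complement genes C1qa, C1qb and C1qc, which macrophages express, and they are named because they were the ones called near Wnt4, after their values were seen. Of the tested leukocyte markers, Lyz2 was called lower as well, whereas Cd68 and Csf1r were not called. The part of leukocyte transcript in these 5 calls was not tested.

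The markers bear on the 3 ligands that fell as follows. In line 199 the basal marker sum of 1870 FPKM lay within the MEC range and the fibroblast marker sum lay above it, and Wnt5a, Wnt5b and Wnt11 together reached 8.81 FPKM there, against 89.5 to 125 in MEC. In lines 233 and 336, where both marker sums were far below MEC, the same 3 ligands summed to 6.4 and 3.81 FPKM. Mylk, Acta2, Dcn and Lum were below MEC in all 3 lines, as these ligands were. In line 199 Acta2 was close to the lowest MEC preparation (719 against 736 FPKM). The rest of the basal and fibroblast lists (Krt5, Krt14, Trp63, Col1a1, Col1a2, Col3a1, Pdgfra and Pdgfrb) lay above every MEC preparation in line 199. In lines 233 and 336 these markers lay below every MEC preparation. Luminal, endothelial and leukocyte markers were also lower in most or all lines, although Cd68 lay above every MEC preparation in line 336. The part of any of these cell types in the result was not tested.

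**Figure D2:**
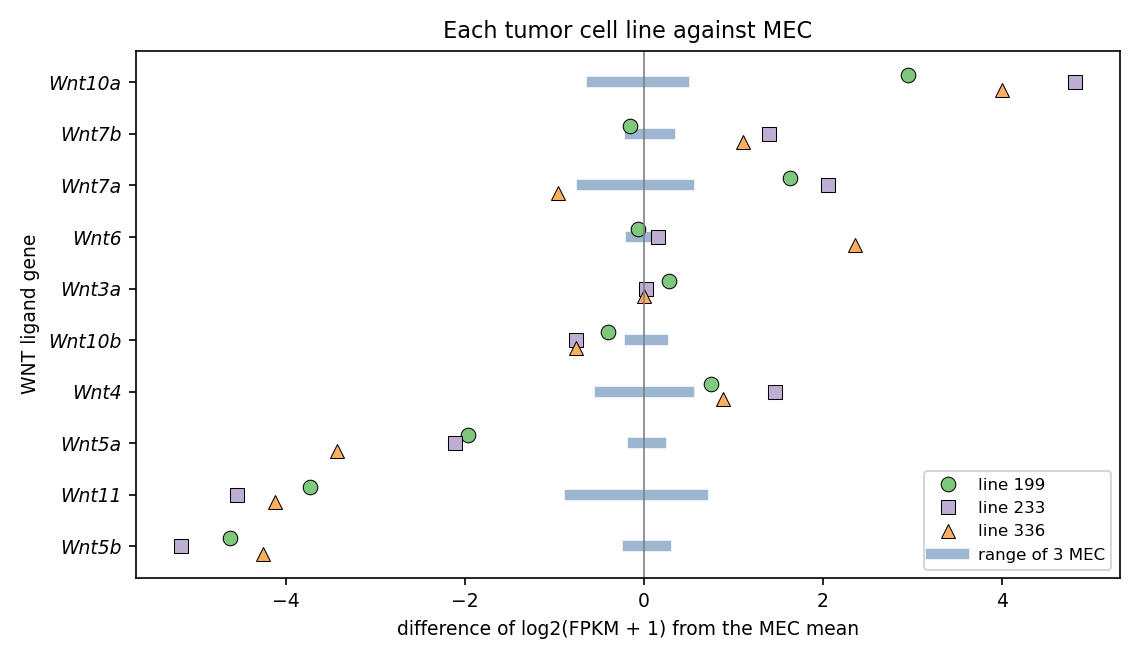
Difference of each MEKO tumor cell line (circle, square, triangle) from the MEC mean on the log2(FPKM + 1) scale for the 10 ligands, with blue bars giving the range of the 3 MEC preparations. All 3 lines lie to the right of the MEC range for Wnt10a and Wnt4 and to the left of it for Wnt5a, Wnt11, Wnt5b and Wnt10b.

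**Figure D3:**
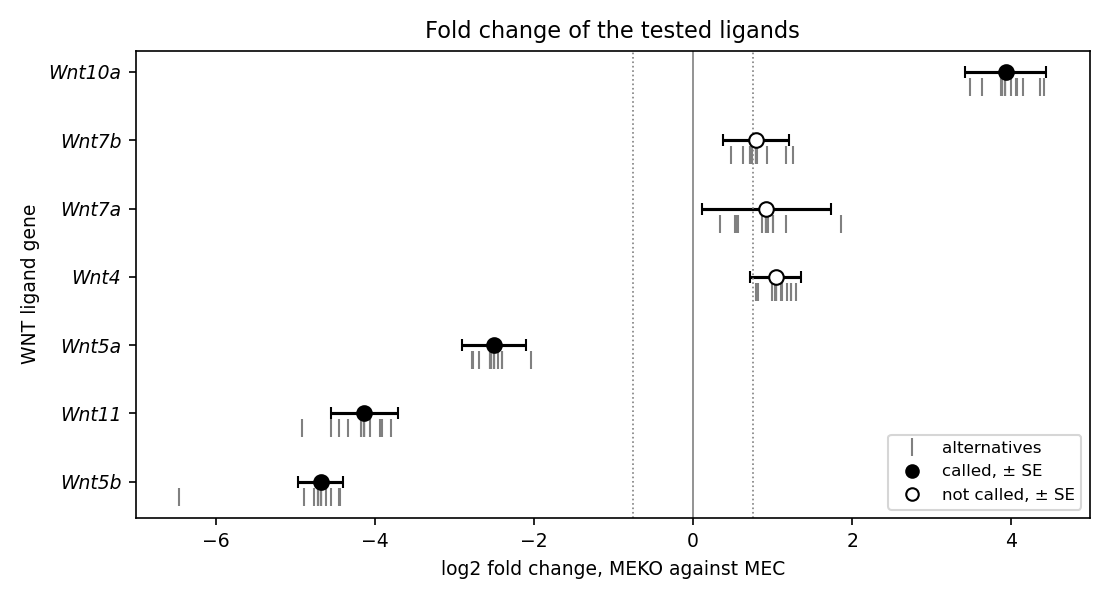
Log2 fold change of MEKO against MEC with its SE for the 7 ligands that passed the filter (filled, called; open, not called), grey ticks giving the values under the alternative settings and dotted lines the threshold of 0.75. Wnt10a, Wnt5a, Wnt11 and Wnt5b are called, and no alternative moved a ligand across 0.

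The composition of the repertoire turned over while its total did not move beyond the spread of the lines. The 10 ligands summed to 165, 192 and 163 FPKM in MEC and to 118, 295 and 189 in lines 199, 233 and 336 (173 ± 16.4 and 201 ± 89.3, SD, n = 3 each). Canonical ligands summed to 63.4, 62 and 71.3 FPKM in MEC and to 103, 278 and 178 in the lines, and non-canonical ligands to 102, 130 and 91.6 in MEC and 15.1, 17.5 and 10.9 in the lines. Neither sum overlapped between the groups. Non-canonical transcripts thus made up 61.6, 67.8 and 56.2% of the total in MEC and 12.9, 5.91 and 5.74% in the lines (61.9 ± 5.78 and 8.17 ± 4.06%, SD, n = 3 each). A sum is set by its most abundant genes, and no test was run on these sums. Since Wnt4 can also act through β-catenin, it was moved to the canonical class as an alternative, which left 59.6, 65.1 and 54.9% non-canonical in MEC and 7.48, 2.17 and 2.01% in the lines.

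**Figure D4:**
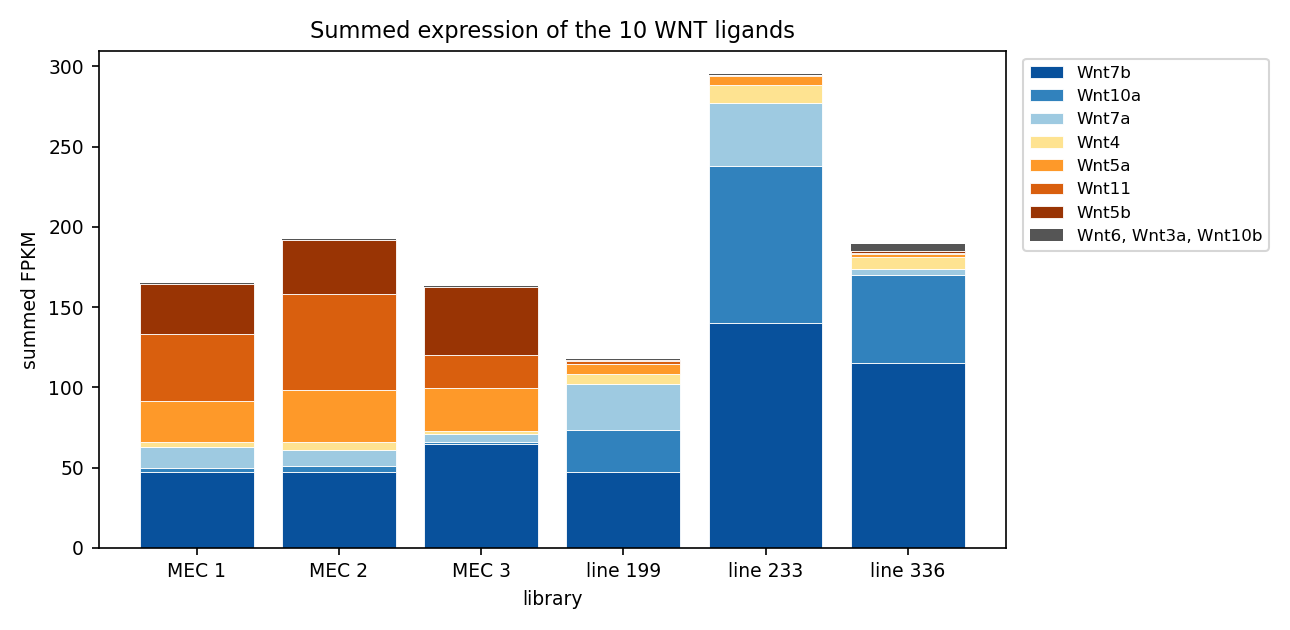
Summed FPKM of the 10 ligands in each library, stacked by gene, with canonical members in blue, non-canonical members in yellow to brown and the 3 lowest canonical members in grey. The brown share (Wnt11 and Wnt5b) is nearly gone in the 3 tumor cell lines, and Wnt10a takes 22.2 to 33.3% of the total there against 0.824 to 1.96% in MEC.

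The order of the ligands changed accordingly. In MEC the 4 leading ligands were Wnt7b, Wnt11, Wnt5b and Wnt5a, at means of 53, 40.6, 35.7 and 28.2 FPKM, and neighbours in this order had overlapping ranges. Wnt9a at 16.2 ± 1.89 FPKM stood apart from Wnt5a above it and from Wnt7a below it. In MEKO the order was Wnt7b, Wnt10a and Wnt7a, at 101, 59.8 and 23.9 FPKM, then Wnt9a, Wnt4 and Wnt5a, and all neighbours overlapped. Wnt7b made up 24.6 to 39.5% of the 10 members in MEC and 40, 47.5 and 60.6% in the lines. Line 199 carried Wnt7b at 47.1 FPKM, above Wnt7a at 28.8 and Wnt10a at 26.1. Line 233 carried Wnt7b and Wnt10a well above Wnt7a, and in line 336 Wnt7b and Wnt10a were followed by Wnt4 at 7.05 FPKM. Each MEC preparation held 7 of the 10 members above 1 FPKM, and lines 199, 233 and 336 held 6, 5 and 7.

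Of the 9 other mouse ligands in the list, Wnt9a alone exceeded 1 FPKM in any library. It was at 14.3, 16.2 and 18.1 FPKM in MEC and at 2.81, 24.4 and 3.68 in lines 199, 233 and 336, with line 233 above MEC and the other lines below it. Its log2 fold change of -1.16 ± 0.7 was not called (limma, adjusted p = 0.325), and without line 233 Wnt9a, the one ligand of this list that was tested, was called lower. Wnt16 was listed at 0 in all 6 libraries.

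The genes most like each called ligand were found by Pearson's r of log2(FPKM + 1) over the 6 libraries, a measure that the difference between 2 groups of 3 dominates. For Wnt10a these were Gm6650, Rapgef3 and Adk (r = 0.999, 0.998 and 0.997). For Wnt5b they were Stac2, Calr4 and Tspan13 (r = 0.999, 0.999 and 0.998), for Wnt11 they were Pf4, Enho and Krt4 (r = 0.998, 0.998 and 0.997), and for Wnt5a they were Tgif1, Pof1b and Dok4 (r = 0.996, 0.996 and 0.995). Between 229 genes (Wnt10a) and 490 genes (Wnt5b) had an r above 0.95 with a called ligand, so that these leading genes were few among many with nearly the same pattern.

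WNT ligands need acylation by Porcn and carriage by Wls, and the list of 15 secretion genes also held the desaturases, the retromer that recycles WLS, glypicans, and the enzymes Notum and Trabd2b that inactivate ligands outside the cell. Of 14 tested, none was called higher and 1 was called lower, with a median log2 fold change of -0.46 against 0.0143 over all tested genes. Over all tested genes 2.64% were called higher and 7.26% lower, and these shares apply beside the counts of the following lists too. Trabd2b, a membrane protease that cuts WNT proteins, was at 2.86, 2.76 and 2.89 FPKM in MEC and at 0.0696, 0.00646 and 1.14 in the lines (-1.54 ± 0.34, limma adjusted p = 0.0406). Notum, a deacylase that β-catenin signaling itself induces, was at 0, 0 and 0.0228 FPKM in MEC and at 0.255, 13 and 9.18 in lines 199, 233 and 336, and was not called (2.48 ± 0.89, limma adjusted p = 0.131). Both inactivating enzymes differed strongly among the lines. Trabd2b passed the filter through MEC alone, which favours a lower call, and Notum passed it through the lines alone. Notum and Wnt7b were each higher in lines 233 and 336 than in line 199. Neither was called, and a link between them was not tested. Porcn (-0.84 ± 0.45) and Wls (-0.52 ± 0.3) were not called (limma, adjusted p = 0.274 and 0.31). The call for Trabd2b did not hold when any single library other than line 336 was left out, where the list had 0 lower calls, and without line 199 the list had 2 higher calls.

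The receptor list held 14 genes, the FZD family, the co-receptors Lrp5 and Lrp6, and Adgra2 and Reck, which together recognise WNT7A and WNT7B. Of 11 tested, 1 was called higher and 3 were called lower, with a median log2 fold change of -0.67. Adgra2, entered in the table under its older symbol Gpr124, was at 1.98, 3.05 and 1.36 FPKM in MEC and at 15.1, 4.97 and 13 in lines 199, 233 and 336, with every line above every MEC preparation (1.85 ± 0.42, limma adjusted p = 0.0433). Its partner Reck was at 0.829, 0.941 and 1.93 FPKM in MEC and at 0.375, 0.169 and 1.71 in the lines, and with a mean of 0.991 FPKM it did not pass the filter. Fzd3 fell from 2.97 ± 0.705 to 0.448 ± 0.216 FPKM (SD, n = 3 each; -1.45, limma adjusted p = 0.0198). Fzd4 fell from 3.77 ± 0.927 to 0.621 ± 0.253 FPKM (SD, n = 3 each; -1.55, limma adjusted p = 0.0166), and Fzd5 from 8.26 ± 1.07 to 2.91 ± 0.526 FPKM (SD, n = 3 each; -1.25, limma adjusted p = 0.015). In all 3 of these FZD receptors every line lay below every MEC preparation. Fzd3 and Fzd4 passed the filter through MEC alone, which favours lower calls. Lrp5 (39.4 ± 2.84 and 29.1 ± 6.53 FPKM) and Lrp6 (16.5 ± 2.51 and 13.2 ± 1.77 FPKM) were not called. The count of higher receptors was 1 without line 233 and 0 when any other library was left out, and the count of lower receptors was 0 without MEC 1 or MEC 2, 2 without MEC 3, and 3 or 4 without any one of the lines.

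Among 13 genes of non-canonical reception and planar cell polarity, 10 were tested, 2 were called lower and none higher, with a median log2 fold change of -0.47. Celsr2, a polarity cadherin, was at 26, 22.5 and 20.5 FPKM in MEC and at 6.53, 3.68 and 0.377 in the lines (-2.71 ± 0.6, limma adjusted p = 0.0394). Daam1, a formin that links WNT to the actin skeleton, went from 17.2 ± 0.802 to 9.06 ± 1.65 FPKM (SD, n = 3 each; -0.87, limma adjusted p = 0.0301). Ror1, a receptor of WNT5A, was at 5.55, 7.02 and 4.2 FPKM in MEC and at 2.93, 0.284 and 1.84 in the lines without a call (-1.42 ± 0.44, limma adjusted p = 0.0961). Ror2 was at 3.63 FPKM in line 199 and under 0.03 in the others, against 1.05 to 1.62 in MEC. The polarity count was unstable, with 0 lower calls when any MEC preparation or line 233 was left out, 1 without line 336 and 5 without line 199.

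The list of secreted antagonists, most of which bind WNT ligands or LRP co-receptors outside the cell, held 13 genes. Of these, 8 were low in both groups and did not pass the filter. Of the 5 tested, 4 were called lower and the median log2 fold change was -2.06. Sfrp2, Dkk2 and Sostdc1 passed the filter through MEC alone, with MEKO means of 0.0929, 0.562 and 0.489 FPKM. The filter thus tilts this count and median toward lower values. Dkk3 was at 23.2, 25.6 and 46.7 FPKM in MEC and at 4.61, 0.0615 and 0 in the lines (-4.11 ± 0.7, limma adjusted p = 0.0193). Sostdc1, an antagonist of both WNT and BMP signals, was at 5.2, 2.98 and 7.14 FPKM in MEC and at 0.239, 0 and 1.23 in the lines (-2.06 ± 0.41, limma adjusted p = 0.0292). Dkk2 was at 4.56, 4.61 and 4.78 FPKM in MEC and at 1.67, 0 and 0.0167 in the lines (-2.02 ± 0.42, limma adjusted p = 0.0325). All 3 were lowest in lines 233 or 336, and Sfrp2 (-2.53, limma adjusted p = 0.00354) was under 0.2 FPKM in every line. Sfrp1 was not called (0.63 ± 0.68, limma adjusted p = 0.577) and reached 14.4 FPKM in line 233 against 1.87 to 2.54 in MEC. The count of lower antagonists was 1 without any one of the MEC preparations or line 233, 2 without line 336 and 4 without line 199.

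Of 10 genes that β-catenin is known to activate, 6 were tested, 1 was called higher and 2 were called lower, with a median log2 fold change of 0.81. Myc rose from 65.8 ± 17.9 to 132 ± 18.5 FPKM (SD, n = 3 each; 1.03, limma adjusted p = 0.0486). The 2 that fell were Rnf43, which removes FZD from the surface, from 4.07 ± 0.168 to 1.5 ± 0.46 FPKM (-1.03, limma adjusted p = 0.0327), and the transcription factor Tcf7, from 13.6 ± 1.81 to 6.14 ± 1.92 FPKM (-1.06, limma adjusted p = 0.0419). Axin2, the negative feedback gene most used as a readout of the pathway, was at 1.79 FPKM in line 199 and at 10.7 and 11.3 in lines 233 and 336, against 0.55 to 0.935 in MEC, and was not called (limma, adjusted p = 0.0731). Ccnd1, the cell cycle gene of cyclin D, was at 174, 167 and 119 FPKM in MEC and at 330, 806 and 314 in lines 199, 233 and 336, and was not called (1.53 ± 0.39, limma adjusted p = 0.0586). The lines were not ordered alike across the targets, since line 199 was the lowest line for Axin2, the highest for Znrf3 (7.63 FPKM against 5.01 and 5.08) and between the other lines for Ccnd1 and Myc. The higher and lower calls of this list were all lost without any one of the MEC preparations or line 336, and their counts were 1 and 2 without line 199 or line 233.

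**Figure D5:**
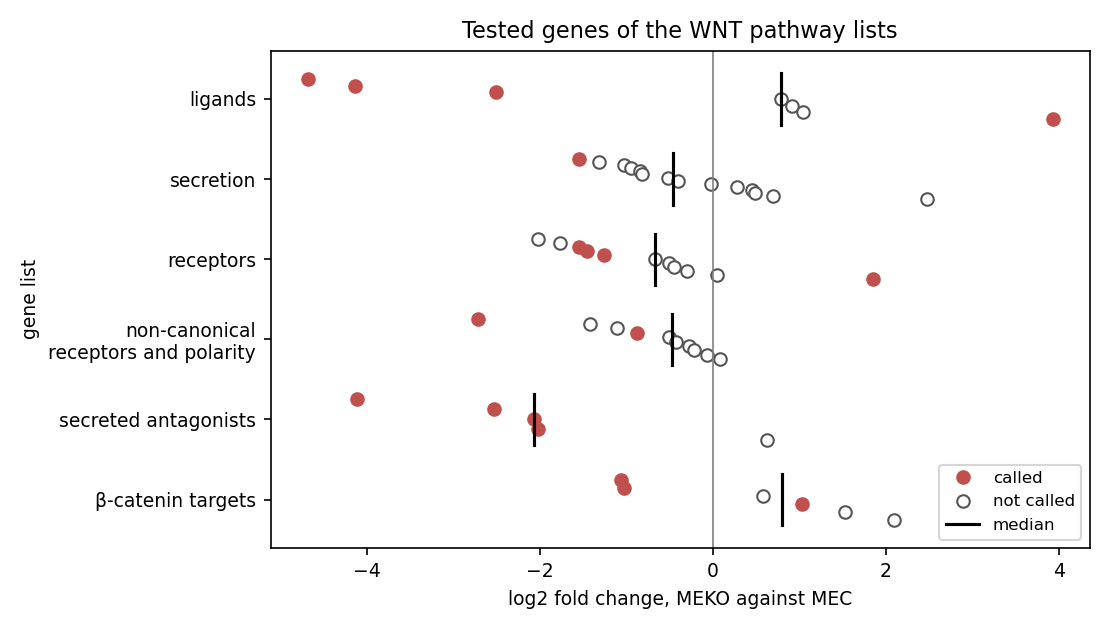
Log2 fold change of MEKO against MEC for the tested genes of the ligand set and 5 WNT pathway lists, with filled points for called genes and a black bar for the list's median. Called genes of the secretion, polarity and antagonist lists lie to the left of 0, whereas the ligands, the receptors and the β-catenin targets hold calls on both sides.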

How the data were processed

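RNA was sequenced from 6 libraries, 3 MEC and 3 MEKO, grouped by the labels. The deposited values are FPKM that the authors made with TopHat2 2.0.14 (Bowtie2) and Cufflinks 2.2.1 on GRCm38, per the labels. The authors' counts, read depth and strand setting are not given in the sources used here, so no count test, interval or detection floor was computed, and reads of Wnt5a, Wnt7b and Wnt11 cannot be told apart from those of the antisense or pseudogene exons that overlap 4.58 to 8.8% of their exon bases. No sequence of 31 bases was shared between any pair of the 19 ligands.

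Where several entries held a symbol, that of the highest mean was taken, and Adgra2 was matched by an older symbol from RefSeq. Genes averaging 1 FPKM or more over the 6 libraries were tested on log2(FPKM + 1) with limma 3.58.1 (R 4.3.3) and its mean-variance trend, and p-values were adjusted by Benjamini-Hochberg over all tested genes. The thresholds follow the study's methods. The procedure was tested on simulated data. Whether the 3 MEC preparations or lines of a group were handled separately at every step is not stated, and p-values measure the spread between these libraries. Promoter windows are from RefSeq (GRCm38.p6), and gene positions from GENCODE M21 on GRCm38. Protein sequences were not used here.

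The members and gene lists were chosen with earlier results of these data known. Named genes were all members, Mapk8 and Mapk9, the called genes of the lists, other ligands above 1 FPKM and, for each called member, the 3 genes with the highest r. Genes of the lists named without a call were added for their roles. Alternatives were a pseudocount of 0.1, no filter or a mean of at least 5 FPKM, quantile or upper-quartile scaling, no trend, array weights, no fold threshold, summed entries, Wnt4 as canonical and each library left out.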

Additional observations from a re-analysis of the deposited data

How the results depend on the processing

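None of the 14 alternatives reversed the direction of any of the 7 tested ligands, and Wnt3a, Wnt6 and Wnt10b entered only the fit without a filter. Of all tested genes, 1234 were called (329 higher and 905 lower). With a mean of at least 5 FPKM, 738 genes were called, 501 of them lower. With array weights 1978 were called (600 higher, 1378 lower), and 2 ligands were higher. Quantile scaling moved the share of higher calls from 26.7 to 37.9%. Counting Wnt4 as canonical lowered the mean non-canonical share of MEKO from 8.17 to 3.89%. When each library was left out in turn, the calls ranged from 300 to 1886 (49 to 546 higher, 251 to 1340 lower), higher ligands from 1 to 2 and lower ligands from 2 to 3. Over the same omissions the lists ranged as follows, for secretion from 0 to 2 higher and 0 to 2 lower, for other ligands from 0 to 1 lower, for receptors from 0 to 1 higher and 0 to 4 lower, for polarity genes from 0 to 5 lower, for antagonists from 1 to 4 lower, and for β-catenin targets from 0 to 1 higher and 0 to 2 lower. Fewer libraries leave fewer residual degrees of freedom. No paired analysis was possible because the groups share no replicate numbers. Depth is unknown, so the low values of Wnt3a, Wnt6 and Wnt10b cannot be placed against a counting limit.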
